A study of Homo sapiens with 6 samples.

Results

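The sgRNAs described here were those that became rare in every late library of a pooled CRISPR screen in synovial sarcoma cells. A guide's level was its CPM, its count after each library's total was scaled to 1000000, and the guide was called lost where that level was under 0.25 of its mean day 0 level in both tumours and in both cultures. Guides that averaged under 30 counts at day 0 were set aside. The rule found 152 lost guides among 3607 kept guides (4.21%), out of 3653 in the library. They were chosen by their measured values against day 0, so their low levels there are a description and no test of the late libraries against day 0 is given for them. Of the 152, 151 targeted 75 of the 348 genes in the library and 1 was a non-targeting guide.

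HS-SY-II, an established human line of synovial sarcoma with the fusion SS18::SSX1, was made to express Cas9 and transduced with lentiviral sgRNAs, then selected with puromycin. There were 3 groups of 2 libraries each: subcutaneous tumours in athymic nude mice (in vivo, a cell line-derived xenograft), cells kept in culture for 14 days (in vitro), and the cells frozen at day 0. All 3 groups carried Cas9 and the library, each library is 1 pool of cells of 1 cell line, and nude mice lack T cells. The study selected the targeted genes as dependencies of synovial sarcoma lines in public screens, so the non-targeting guides are the controls that were not picked for an effect.

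In such a screen the sgRNA in a cell guides Cas9 to its matching gene, and the repair of the resulting cut often leaves the gene without function. A cell whose loss of that gene slows its division or kills it leaves fewer descendants, and its sgRNA takes a smaller share of the reads as the pool grows. Guides to genes of the ribosome, of splicing and of DNA replication are commonly lost in any dividing cell, whereas guides to the BAF chromatin remodelling complex bear on synovial sarcoma in particular, because SS18 is a BAF subunit and its fusion to SSX drives this tumour.

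The libraries held 3394352 to 21854232 counts, and day 0 replicate 1 was the deepest. The lost guides had median levels of 3.14 and 2.05 CPM in the tumours, 12.1 and 13.6 CPM in the cultures and 248 and 168 CPM in the day 0 libraries (replicates 1 and 2 of each group). The kept guides had medians of 165 and 155 CPM in the tumours, 236 and 231 CPM in the cultures and 252 and 250 CPM at day 0. The lost guides therefore started near the level of the library in day 0 replicate 1 and below it in day 0 replicate 2. Together they took 0.210% and 0.163% of the tumour counts, 0.312% and 0.330% of the culture counts and 4.06% and 2.81% of the day 0 counts.

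Fewer guides passed the threshold in the cultures than in the tumours. In the tumours, 788 (21.8%) and 817 (22.7%) of the kept guides were under 0.25 of day 0, and 457 (12.7%) were under it in both. In the cultures 306 (8.48%) and 322 (8.93%) were under it, and 190 (5.27%) in both. The 152 lost guides were 33.3% of the 457 and 80.0% of the 190. The cultures were thus the narrower of the conditions in the rule. Just inside the threshold, by the highest of the 4 ratios to day 0, lay a guide to GPR20 (0.243), one to ATRX (0.245) and guide 3166 of SUMO2 (0.248), then guides to TSTA3 (0.249) and CDC42EP1, the last one below it. Just outside it lay a guide each of WDR5 (0.256), PPM1D (0.257), SLC25A4 (0.259), BRD9 (0.260) and SS18 (0.260).

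The 1 lost non-targeting guide, which should cut nowhere in the genome, was 0.546% of the 183 of its kind. It had 66.2 and 13.5 CPM in the tumours, 86.9 and 87.1 CPM in the cultures and 307 and 429 CPM at day 0. Its highest ratio was 0.236, close to the threshold, and the next lowest non-targeting guide had a highest ratio of 0.827.

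The lost guides came mostly from the later numbers of the library. Guides 1 to 1495 run through the genes once in alphabetical order and are called here the first set, and the later numbers, which hold further guides to the same genes, all guides of 49 more genes and the non-targeting guides, are called the second set. In the second set 139 of 2115 kept guides were lost (6.57%), or 138 of the 1932 that target a gene (7.14%), against 13 of 1492 in the first set (0.871%). Among the 299 genes with guides of both sets the counts were 122 of 1457 second set guides (8.37%) and 13 of 1492 first set guides. The 49 genes with second set guides alone had 16 lost of 475 (3.37%). Why the sets differ was not tested, and the sequences of the guides were not used here.

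The 13 lost guides of the first set targeted 13 genes. Of these, RPL13, RPS27A, SKA2, SRSF2 and SUMO2 also had at least 2 lost guides of the second set, so these genes were hit by guides of both sets. The other 8, CD27, CUL9, GAD1, GTPBP2, MSRB1, MYO18A, SLC15A3 and SLIRP, had no other lost guide.

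Counted per gene, 3 genes had 5 lost guides, 6 had 4, 16 had 3, 14 had 2 and 36 had 1. The 25 genes with at least 3 held 87 lost guides of 244 kept, and 23 of them had guides of both sets. In these genes 82 of 129 second set guides were lost (63.6%), against 5 of 115 first set guides (4.35%). Of the second set guides of all other genes 56 of 1803 were lost (3.11%). The 25 genes were picked by their number of lost guides, and most lost guides were of the second set. These shares therefore follow in part from that choice and are no separate finding. The first set guides, which 23 of the 25 genes have, had median ratios to day 0 of 0.900 in the tumours and 1.24 in the cultures. A gene could thus have most of its second set guides lost while its first set guides stayed near their day 0 level. CPM are shares of a library, so a ratio of 1 need not mark a guide without effect. First set guides of the other genes had median ratios of 1.01 in the tumours and 1.32 in the cultures. Non-targeting guides had medians of 1.06 and 0.882 in the tumours and 1.46 and 1.41 in the cultures. Whether the first set guides of these genes had a smaller effect or none was not tested. Guides of 1 gene share a target and are not independent replicates of it.

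PRPF19 and MDM4 were the genes with every kept second set guide lost, 5 of 5 each. PRPF19 (chr11:60890547-60906585, the span of the gene in RefSeq on GRCh38.p14, as for the positions below) is a ubiquitin ligase of the spliceosome. Its lost guides had median levels of 2.02 and 0.234 CPM in the tumours, 1.77 and 1.48 CPM in the cultures and 123 and 63.3 CPM at day 0. Guide 2903 of PRPF19 had 0 and 2 counts in the tumours, 1 and 1 in the cultures and 1312 and 26 at day 0. Its ratio to day 0 was 0.00896 in the culture of replicate 1 (95% Poisson interval of the late count 0.000227 to 0.0499), and the tumour of replicate 1 was at least 48.9-fold below day 0, taking 3 counts as the limit that a count of 0 allows. Such intervals cover counting error only. The 5 first set guides of PRPF19 had median ratios of 0.633 in the tumours and 0.778 in the cultures.

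The other splicing genes had fewer. SRSF2, an SR protein that helps define exons, had 3 lost guides of 10, 1 of them in the first set, with medians of 4.04 and 13.2 CPM in the tumours, 30.6 and 22.2 CPM in the cultures and 364 and 288 CPM at day 0. GEMIN2, a member of the SMN complex that assembles spliceosomal snRNPs, had 2 of 10, at 34.3 and 45.0 CPM in the tumours and 17.2 and 35.0 CPM in the cultures, medians well above those of PRPF19. On the whole list of splicing genes 10 of 30 kept guides were lost (33.3%), 9 of them among its 15 second set guides.

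Of the guides to genes of the ribosome and its assembly, 17 of 47 kept were lost (36.2%), with 15 of 22 in the second set (68.2%). RPL13 (chr16:89560657-89566829), a protein of the large subunit, had 5 of 10, 1 of them in the first set. Its lost guides had medians of 1.79 and 1.41 CPM in the tumours, 2.06 and 12.3 CPM in the cultures and 361 and 112 CPM at day 0. RPL14, also of the large subunit, had 3 lost guides of 9, and they had medians of 1.35 and 0.586 CPM in the tumours, 1.18 and 1.23 CPM in the cultures and 86.1 and 64.8 CPM at day 0. These guides of RPL14 were already low at day 0, and guide 1947 had 6 and 5 counts in the tumours and 0 and 1 in the cultures. RPS27A encodes a ubiquitin fused to a protein of the small subunit. It had 3 of 8, among them guide 1038 of the first set at 1.57 and 1.41 CPM in the tumours, 3.83 and 3.70 CPM in the cultures and 405 and 209 CPM at day 0.

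ESF1, a nucleolar factor of ribosomal RNA processing, and AAMP, a WD-repeat protein linked to ribosome assembly, had 3 lost guides of 10 each. The guides of ESF1 differed among themselves. Guide 2827 had 0 and 7 counts in the tumours and 3 and 1 in the cultures, against 2321 and 504 at day 0. Guide 2829 had 23.1 and 41.1 CPM in the tumours, 75.4 and 2.22 CPM in the cultures and 439 and 363 CPM at day 0, so its cultures were further apart than its tumours. The first set guides of ESF1 had median ratios of 0.892 in the tumours and 1.54 in the cultures.

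The replication and cell cycle list had 12 of 49 kept guides lost (24.5%), 11 of 24 in the second set, and CCND2, a cyclin of G1, had none. CDC45 (chr22:19479466-19520612), a part of the replicative helicase, had 4 of 10, with medians of 1.46 and 1.17 CPM in the tumours, 1.77 and 0.864 CPM in the cultures and 151 and 105 CPM at day 0. CDT1, which loads that helicase onto origins, had 3 of 10, with medians of 1.79 and 0.938 CPM in the tumours, 7.37 and 6.66 CPM in the cultures and 173 and 114 CPM at day 0. Both replication factors thus had medians under 2 CPM in each tumour, but single guides stayed higher in 1 of the tumours. CDC45 guide 2487 had 26.9 and 1.055 CPM there, and CDT1 guide 1664 had 2.47 and 28.4 CPM. SKA2, of the complex that holds kinetochores to microtubules, had 3 of 9, 1 of them in the first set. The 2 lost guides of CENPF, a kinetochore protein, stayed higher, with means of 45.0 and 36.3 CPM in the tumours, 61.1 and 55.2 CPM in the cultures and 572 and 256 CPM at day 0.

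Sumoylation attaches the small protein SUMO to others with the help of an activating enzyme (SAE1 with UBA2) and of ligases such as PIAS1. The 4 genes SUMO2, PIAS1, UBA2 and SAE1 had at least 3 lost guides each, 14 of 38 in all (36.8%) and 13 of 18 in the second set (72.2%). SUMO2 (chr17:75165586-75182959) had 4 of 9. Its guide 1228, of the first set, had 1.79 and 0.586 CPM in the tumours, 10.3 and 18.3 CPM in the cultures and 214 and 176 CPM at day 0, with both tumours below both cultures. Guide 3166 had 60.6 and 10.9 CPM in the tumours, 17.7 and 2.96 CPM in the cultures and 313 and 175 CPM at day 0, and there the arms overlapped. The other first set guides of SUMO2 had median ratios of 0.943 in the tumours and 1.36 in the cultures.

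PIAS1 (chr15:68054315-68193847) had 4 lost guides of 10, with medians of 1.35 and 1.17 CPM in the tumours, 8.10 and 1.11 CPM in the cultures and 176 and 117 CPM at day 0. For the activating enzyme, UBA2 had 3 of 9, at 2.92 and 3.52 CPM in the tumours and 10.9 and 17.3 CPM in the cultures, and SAE1 had 3 of 10, at 14.8 and 8.56 CPM in the tumours and 8.25 and 14.3 CPM in the cultures. None of the first set guides of PIAS1, UBA2 or SAE1 was lost. Replicates of single guides could differ widely here, and SAE1 guide 1830 had 25 and 285 counts in the 2 cultures.

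MDM4 (chr1:204516406-204558120) binds p53 and blocks it, USP7 removes ubiquitin from MDM2 and p53, and PPM1D is a phosphatase that turns off p53 signalling. Together these p53 regulators had 10 of 30 kept guides lost (33.3%), all among their 15 second set guides. The 5 lost guides of MDM4 had medians of 2.24 and 1.17 CPM in the tumours, 4.42 and 3.45 CPM in the cultures and 313 and 143 CPM at day 0. Guide 1765 was the lowest of them, with 6 and 8 counts in the tumours, 5 and 10 in the cultures and 6851 and 1025 at day 0. Guide 1762 had 10 and 380 counts in the tumours, so its tumours disagreed widely. The 5 first set guides of MDM4 had median ratios of 0.947 in the tumours and 1.18 in the cultures, and each of them had a ratio of at least 1.15 in some late library. USP7 had 3 lost guides of 10, with medians of 7.40 and 2.46 CPM in the tumours, 2.65 and 4.94 CPM in the cultures and 349 and 222 CPM at day 0. PPM1D had 2 of 10, and a further guide, with a highest ratio of 0.257, lay just outside the threshold.

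Of the BAF genes, BRD9 and SS18 had lost guides and SMARCD1 had none, which gave 6 of 30 (20.0%), all among the 15 of the second set. BRD9 (chr5:863741-892801), a bromodomain subunit of the noncanonical BAF complex, had 4 of 10. Its guide 1506 had 0.673 and 0.469 CPM in the tumours, 8.84 and 16.5 CPM in the cultures and 127 and 165 CPM at day 0. Guide 1508 had 77.6 and 14.8 CPM in the tumours, 7.07 and 21.7 CPM in the cultures and 314 and 332 CPM at day 0, so not every guide of BRD9 was lower in the tumours. The 2 lost guides of SS18, the gene on the 5′ side of the fusion, had means of 2.02 and 1.17 CPM in the tumours, 15.9 and 26.5 CPM in the cultures and 242 and 201 CPM at day 0. Over the 6 guides both tumours lay below both cultures in 4, where 39.5% of all kept guides did, and the median log2 of tumours over cultures (CPM plus 1) was -2.60, against -0.75 over all lost guides and -0.41 over all kept guides. Such a low value was not particular to BAF. Over the lost guides of the other genes with at least 3, this median ran from -2.55 (TAF4) and -2.29 (SUMO2) up to 1.21 (SKA2). The 6 guides come from 2 genes and are not replicates of the complex. No guide to SSX1 or SSX3 was lost (0 of 20). All 20 were second set guides, and 7.14% of the second set guides that target a gene were lost. At that share few lost guides would be expected among 20.

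PCGF3 (chr4:705832-770089), which defines a noncanonical Polycomb repressive complex 1 (PRC1), had 4 of 10 lost, with medians of 16.5 and 13.2 CPM in the tumours, 6.04 and 10.9 CPM in the cultures and 223 and 209 CPM at day 0. RING1, a ubiquitin ligase of PRC1, had 1 of 10, and RNF2 had none, which gave 5 of 29 over the list (17.2%).

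The genes of histone acetylation and methylation had 10 of 49 lost (20.4%), all among the 24 of the second set. WDR5, a scaffold of the histone H3 lysine 4 methyltransferase complexes, had 3 of 10, with medians of 9.65 and 11.3 CPM in the tumours, 11.8 and 6.91 CPM in the cultures and 362 and 332 CPM at day 0. KAT2A, the GCN5 acetyltransferase of the SAGA complex, had 3 of 10, with medians of 2.02 and 0.821 CPM in the tumours, 11.2 and 12.1 CPM in the cultures and 212 and 167 CPM at day 0. The second SAGA gene on the list, TADA2B, had 2, and the acetyltransferase KAT6A and ING3, a reader in the NuA4 complex, had 1 each. TAF4, a TFIID subunit that was on no list, had 3 of 10, with medians of 1.79 and 1.99 CPM in the tumours, 16.2 and 27.4 CPM in the cultures and 164 and 168 CPM at day 0.

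Some targets have near-identical copies at other places, so that 1 guide may cut more than once, and 12 of their 114 kept guides were lost (10.5%). All 12 were of the second set, but so were 109 of the 114 kept guides. The share to compare is therefore the 7.14% lost among all second set guides that target a gene. LGALS7B (chr19:38789200-38791754), a galectin of squamous epithelia with a nearly identical neighbour, had 4 of 10, with medians of 10.2 and 14.0 CPM in the tumours, 27.4 and 6.66 CPM in the cultures and 305 and 135 CPM at day 0. FRG2, one of a family of copies near chromosome ends, had 3 of 10, with medians of 1.79 and 3.52 CPM in the tumours, 10.6 and 14.6 CPM in the cultures and 249 and 134 CPM at day 0. Its other 7 guides were also low, with median ratios of 0.116 in the tumours and 0.371 in the cultures. AGAP12P, MTRNR2L3, RASA4B, SUMO1P3 and TYW1B had 1 each, and CHRFAM7A, CSH2, METTL2B, TYW1 and USP6 had none. Whether cuts at several places contribute was not tested.

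Of 4 tissue-restricted genes, HPN, a serine protease of liver and prostate, had 3 lost guides of 10, and AMBP, DNAI1 and HBM had none. Guide 2541 of HPN had 0.673 and 0.703 CPM in the tumours, 13.8 and 27.9 CPM in the cultures and 178 and 138 CPM at day 0. For the shelterin genes, which protect telomeres, TINF2 had 1 lost guide of 10 and TERF1 had none. The Wnt genes CTNNB1, BTRC, RSPO3 and CTNNBIP1 had 0 of 38, where 4.21% of all kept guides were lost. From 140000000 bases on chromosome 8 to its end the 15 targeted genes had 7 of 150 kept guides lost (4.67%, near the 4.21% of the library), in GPR20, MFSD3, C8orf82, RHPN1 and TSTA3. BICDL1, which the study named for its screens, had none. The study ranked genes over their guides with MAGeCK, whereas the rule here counts single guides low in every late library. KAT2A, C8orf82, SUMO2, FRG2 and LGALS7B, which the study named with it, had at least 1 lost guide each. The genes on no list had 48 of 2881 lost (1.67%). The lists were drawn up with earlier results of these data known, so this low share follows in part from that choice.

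The depth of loss varied over the 152 guides. In all 4 late libraries 55 guides in 33 genes were under 0.1 of day 0, 29 in 22 genes were under 0.05 and 16 in 13 genes were under 0.02. Among the lost guides of the ribosome list 7 of 17 were under 0.05 throughout, and the 4 SUMO genes had 4 of 14, the p53 regulators 4 of 10, splicing 3 of 10 and BAF 0 of 6. Among the 16 guides under 0.02 were 2 each of PRPF19, RPL13 and RPL14 and 1 each of AGAP12P, CDC45, ESF1, MDM4, MYO18A, PIAS1, PTK2B, RPS27A and ZNF493. Of these, 2 had no count in 1 of the day 0 libraries. PTK2B guide 2154 had 0 counts in all 4 late libraries but 0 and 112 at day 0, and was at least 14.0 to 35.2-fold lower in the late libraries. MYO18A guide 753 had 1 and 2 counts in the tumours and 0 and 0 in the cultures, against 626 and 0 at day 0. ZNF493 guide 3469 had 2 and 9 counts in the tumours and 3 and 3 in the cultures, with 3461 and 284 at day 0, and no other guide of that gene was lost.

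Many lost guides were already uneven between the day 0 libraries. The rule did not compare these libraries, but it set the late levels against their mean. A high value in 1 day 0 library raises that mean and helps a guide to pass, so this comparison is not independent of the rule. In day 0 replicate 2 the CPM was lower than in replicate 1 for 118 of the 152, and under 0.5 of it for 44 (28.9%), against 231 of all 3607 kept guides (6.40%) and 137 of the 1794 second set guides to genes that were not lost (7.64%). The CPM was over 2 times higher in replicate 2 for 6 lost guides, against 300 of the kept guides (8.32%). The median log2 of replicate 2 over replicate 1 was -0.59 in the lost guides and 0.03 in the other kept guides. The lists differed in this. It was -0.97 for the lost splicing guides, lower in replicate 2 in 10 of 10, -0.74 for ribosome and ribosome assembly and -0.71 for replication and cell cycle. It was -0.41 for the 4 SUMO genes, -0.43 for the p53 regulators and -0.40 for histone acetylation and methylation. For PRC1 it was -0.04 and for BAF 0.10, medians over guides that went both ways, from -1.55 (guide 1496) to 0.92 (guide 1497) within PCGF3 and from -1.56 (SS18 guide 1503) to 0.38 (BRD9 guide 1509) within BAF. At the level of guides, 2903 of PRPF19 had 5.75 CPM in replicate 2 against 60.0 CPM in replicate 1, 1763 of MDM4 had 84.3 against 412 CPM, and 2475 of RPL13 had 71.9 against 361 CPM. With replicate 2 alone as the day 0 level 134 guides were lost, 126 of them among the 152. With replicate 1 alone 178 were lost, 142 of them among the 152.

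The tumours and the cultures were compared with each other to ask whether the lost guides differed between growth in mice and in culture. Both tumours lay below both cultures in 62 of the 152 (40.8%), close to the 1424 of 3607 kept guides (39.5%), and both lay above in 9, against 317 of the kept guides (8.79%). By edgeR's quasi-likelihood test over all kept guides, with Benjamini-Hochberg adjustment, no lost guide was lower (0.00% of all kept guides) or higher (0.0277%, 1 guide) in the tumours at an adjusted p under 0.05. At an unadjusted p under 0.05 by edgeR 21 of the 152 lost guides were lower and 4 higher. Of all 3607 kept guides 200 (5.54%) were lower and 308 (8.54%) higher. DESeq2 called 13 of the 152 lower and 2 higher, where it called 76 (2.11%) and 141 (3.91%) of all 3607 kept guides. For limma it was 1 of the 152 lower and 0 higher, against 12 (0.333%) and 6 (0.166%) of the 3607. Over the lost guides the median log2 fold change was -0.44 in this fit, against 0.09 over all kept guides, and on CPM (1 added) without TMM -0.75 against -0.41. The rule holds both arms low and so bounds this comparison.

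The lost guides with the lowest p in that comparison were to KAT6A, TAF4, LGALS7B and RASA4B, named after their values were seen. The KAT6A guide had 2.69 and 1.99 CPM in the tumours and 37.7 and 64.4 CPM in the cultures, a log2 fold change of -3.95 (SE 0.83, edgeR adjusted p = 0.165). TAF4 guide 1935 had 1.79 and 1.99 CPM in the tumours and 30.6 and 55.0 CPM in the cultures, a log2 fold change of -3.98 (SE 0.93, edgeR adjusted p = 0.194). In the opposite direction PCGF3 guide 1500 had 28.9 and 16.3 CPM in the tumours and 3.54 and 0.740 CPM in the cultures, a log2 fold change of 3.91 (SE 1.08, edgeR adjusted p = 0.230). In each of these 3 guides the tumours and cultures did not overlap, and none passed the adjusted threshold. Such separation was common, with both tumours below both cultures in 39.5% of all kept guides and above them in 8.79%. The sgRNAs were amplified from genomic DNA of each pool, so these levels are a guide's share of the pool and not a number of cells.

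By the median difference, replicates of the lost guides were further apart than those of all kept guides in cultures and at day 0. In the tumours they were not. The 2 tumours differed over 10-fold in CPM (1 added) for 15 lost guides (9.87%), against 272 of the kept guides (7.54%). The cultures did so for 9 (5.92%), against 0.943% of the kept guides, and the day 0 libraries for 2 (1.32%), against 0.638%. AAMP guide 2440, for example, had 7 and 332 counts in the tumours and 14 and 10 in the cultures. The median absolute log2 difference between replicates was 0.90 for the lost guides and 1.01 for all kept guides in tumours, 0.78 for the lost and 0.43 for all kept guides in cultures, and 0.72 for the lost and 0.43 for all kept guides at day 0. Across the 152 guides Pearson's r of log2 CPM was 0.448 between the tumours, 0.639 between the cultures and 0.665 between the day 0 libraries, a description over guides of the same libraries. Counts were small: 55 lost guides had at most 20 counts in both tumours, 34 in both cultures and 22 in all 4 late libraries, while 147 had at least 100 counts in each day 0 library.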

How the data were processed

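The authors sequenced the sgRNAs amplified from genomic DNA of 6 libraries, assigned the reads to guides with MAGeCK and deposited whole-number read counts per guide. A second deposited table holds normalized signal values, each count column times 1 constant per library by a rule that the labels and methods do not state. MAGeCK and hg38 are named in the submitters' processing notes without versions. Labels do not show that replicates came from separate cultures beyond the duplicate screens, so p-values measure the spread between 2 libraries a group. By the methods, cells of each replicate went into 4 mice. The study's supplement names both tumours as mice of replicate 1, while the labels number them 1 and 2, so the tumours may share 1 transduction.

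CPM used column totals, with no pseudocount in ratios and 1 CPM added for log2. Guides with a mean of at least 30 day 0 counts were kept. Tumours were tested against cultures on the counts by the quasi-likelihood test (glmQLFTest) of edgeR 4.0.16, under R 4.3.3, with TMM scaling, all 3 groups in 1 model and no block, and Benjamini-Hochberg adjustment over all kept guides. The fit was tested on simulated data. Late counts have exact 95% Poisson intervals, and 3 counts is the limit for a count of 0. Alternatives were DESeq2 1.42.0, limma 3.58.1 on log2 of the normalized values plus 1, other scalings, thresholds and count minimums, a replicate block, and leaving out each library. Gene positions come from RefSeq (GRCh38.p14), where all 348 genes matched. Python 3.11.15 with scipy 1.17.1, pandas 2.3.3 and numpy 2.4.6 was used for the tables.

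Named genes were those with at least 3 lost guides, those the study names for its screens, members of the lists, and the 10 guides lowest against day 0 and 5 on each side of the threshold. The members, lists and guide sets were chosen with earlier results of these data known. Results for 1 of the named genes are not reported here.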

Additional observations from a re-analysis of the deposited data

How the results depend on the processing

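The number of lost guides was 152 at the threshold of 0.25, 70 at 0.5 of that threshold, 410 at 2 times that threshold, and 241 where the total of the non-targeting guides set the scale. The number of genes with at least 3 lost guides was 25, and 10, 63 and 38 under the same settings. Leaving out each library in turn gave 134 to 210 lost guides and 22 to 31 such genes. TMM gave 134 guides, median-ratio factors 128, and the authors' normalized values 216. Without day 0 replicate 1, KAT2A, LGALS7B, SKA2 and TAF4 each had 2 lost guides. KAT2A had 5 without in vivo replicate 2, and FRG2 5 without day 14 replicate 2. MDM4 kept at least 4 and CDC45 and PCGF3 4 when any 1 library was left out.

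No lost guide was called between tumours and cultures by edgeR, against 15 by DESeq2 (9.87% of the lost guides, where 6.02% of all kept guides were called) and 1 by limma (0.658%, against 0.499%). Leaving out 1 library in edgeR gave 0 to 33 calls, 33 without in vivo replicate 1 (21.7% of the lost guides, against 21.4% of all kept guides) and 25 without in vivo replicate 2 (16.4%, against 18.7%), where the remaining tumour is assumed to vary like the other groups, and 0 without any other library. The replicate block gave 0. Deviations of same-numbered libraries correlated at 0.0700 (day 0 with day 14), 0.00104 and 0.00284, so the numbers were not taken as pairs. Low late counts limit how far the deepest losses can be ranked.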
